A study of Homo sapiens with 8 samples.

Results

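Transcripts of 9 genes were followed in MCF-10A cells, an established, non-tumorigenic line of human breast epithelium: the laminin-332 chains LAMA3 and LAMB3 and the integrin subunits ITGA2, ITGA3, ITGA5, ITGA6, ITGB1, ITGB4 and ITGB6. They were picked by gene symbol, with earlier results of these data known, from the 60617 genes of the deposited count table. All 9 were among the 17693 genes with enough counts to test. Poly(A) RNA was sequenced from 8 libraries in 4 groups of 2: cells labelled Empty or NeuT, each untreated or given 1 µM JG-98, an inhibitor of Hsp70 chaperones, for 12 h. All groups shared a DMEM/F-12 medium containing epidermal growth factor, insulin, hydrocortisone, cholera toxin and horse serum. The series was designed to compare the sensitivity of transformed cells to JG-98, but the labels do not say what the NeuT cells carry, nor whether either line is a single clone. They also do not say whether replicates came from separate cultures, so p-values measure only the spread between these libraries, which may be technical.

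Laminin-332 is a basement membrane protein, and LAMA3 and LAMB3 encode its α3 and β3 chains. Epithelial cells secrete it and hold on to it through integrin α6β4 in hemidesmosomes, which link to keratin filaments, and through integrin α3β1 in adhesions that link to actin. Each integrin is a pair of an α and a β subunit, so ITGB1 also partners ITGA2 in a collagen and laminin receptor and ITGA5 in the main fibronectin receptor, while ITGB6 pairs with the αv subunit in a receptor that binds latent TGF-β.

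Total counts were 37341458 in Empty JG-98 replicate 1 and 55050996 to 56861971 in the other 7 libraries. Markers of basal breast epithelium (6 of 6) and of epithelia in general (4 of 4) were at 1 TPM (counts divided by exonic length and scaled to the same total in each library) or more in every library. Of 6 mesenchymal markers, PDGFRA, PDGFRB, COL3A1 and LUM were under 1 TPM in every library, and the sum of the 6 was 3.16 to 3.46 TPM in the Empty libraries and 20.9 to 24.4 TPM in the NeuT libraries. DCN, a proteoglycan of connective tissue, was at 0.764 to 1.11 TPM in Empty and 18.5 to 22.4 TPM in NeuT. The 5 leukocyte markers summed to 12.0 to 16.7 TPM in Empty and 23.9 to 27.2 TPM in NeuT, nearly all of it CD14, with PTPRC and CD3E under 1 TPM throughout. The 4 endothelial markers summed to 6.14 to 9.01 TPM in Empty and 4.58 to 5.30 TPM in NeuT, and of the 6 luminal markers only PGR was under 1 TPM. The replicates of NeuT JG-98 lay furthest apart, with a median gap per gene of 0.106 on the log2 scale against 0.0537 to 0.0783 in the other groups.

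The 9 genes lie on 7 chromosomes of GRCh38, and the deposited table counted reads over all their annotated exons, untranslated parts included. LAMA3 (ENSG00000053747) spans chromosome 18, 23689443 to 23956222, plus strand, with 14678 exonic bases, and LAMB3 (ENSG00000196878) chromosome 1, 209614870 to 209652425, minus strand, with 4647. Among the α subunits, ITGA2 (ENSG00000164171) lies on chromosome 5, 52989340 to 53094779, plus strand, and ITGA3 (ENSG00000005884) on chromosome 17, 50055968 to 50090481, plus strand. ITGA5 (ENSG00000161638) lies on chromosome 12, 54395261 to 54419266, minus strand, and ITGA6 (ENSG00000091409) on chromosome 2, 172427354 to 172506459, plus strand. Among the β subunits, ITGB1 (ENSG00000150093) lies on chromosome 10, 32900318 to 33005792, minus strand, ITGB4 (ENSG00000132470) on chromosome 17, 75721328 to 75757818, plus strand, and ITGB6 (ENSG00000115221) on chromosome 2, 160099667 to 160200313, minus strand. Exons of other genes cover 16.7% of the exonic bases of ITGB6, 6.67% of ITGB1 and 5.23% of ITGA6, and under 1% of LAMB3 and ITGA5. The gene that overlaps ITGB6 lies on the same strand, so strand could not separate their reads. Whether counting used strand is not given in the sources used here, so reads of ITGA6 and of the antisense genes on it cannot be told apart.

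Because LAMA3, LAMB3 and ITGA5 were among the genes that differed more between the lines and ITGB1 and ITGB6 among those that differed less, the stretch before their start sites is shown for comparison. Windows of 250 bases before the start came from RefSeq promoters on GRCh38.p14, which held 7 of the 9 genes (ITGA3 and ITGB4 were not matched). The stretches below leave out bases that lie in annotated exons, run 5′ to 3′ on the strand of the gene, and have the GC box (GGGCGG, or CCGCCC on the other strand) in capitals.
LAMA3, chr18:23872770-23872839, plus strand: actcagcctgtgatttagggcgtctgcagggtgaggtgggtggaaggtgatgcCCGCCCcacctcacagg
LAMB3, chr1:209652467-209652675, minus strand: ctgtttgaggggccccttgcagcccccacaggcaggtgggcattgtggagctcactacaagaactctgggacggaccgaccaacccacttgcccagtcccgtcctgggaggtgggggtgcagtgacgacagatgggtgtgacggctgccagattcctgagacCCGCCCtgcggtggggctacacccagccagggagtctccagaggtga
ITGA5, chr12:54419461-54419516, minus strand: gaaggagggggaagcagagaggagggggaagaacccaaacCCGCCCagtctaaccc
ITGB1, chr10:32958233-32958480, minus strand: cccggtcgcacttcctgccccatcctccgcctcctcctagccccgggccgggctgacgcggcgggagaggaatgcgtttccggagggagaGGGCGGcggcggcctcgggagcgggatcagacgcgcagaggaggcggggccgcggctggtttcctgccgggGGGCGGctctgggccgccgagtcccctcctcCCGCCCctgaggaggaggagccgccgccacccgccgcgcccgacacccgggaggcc
ITGB6, chr2:160200314-160200522, minus strand: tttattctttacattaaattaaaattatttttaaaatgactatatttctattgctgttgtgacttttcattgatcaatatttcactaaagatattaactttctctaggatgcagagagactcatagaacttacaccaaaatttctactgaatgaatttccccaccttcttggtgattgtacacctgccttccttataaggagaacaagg

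ITGB1 and ITGB6, both with small differences, had 78.2% and 30.1% G and C, LAMB3 had 64.6%, and ITGA2, which is not printed, had 77.2%. Over the whole 250 bases, 5 of the 7 matched genes held a GC box on either strand, against 42.2% of all 27305 promoters. The motif of the AP-1 factors, TGANTCA, was in 1 of the 7, LAMA3, against 6.6% of all promoters, and it occurred there 2 times. These sites start 125 and 69 bases before the RefSeq start at 23873020, which lies inside the gene as the count table spans it. So do the starts of ITGB1, at 32958230, ITGB6, at 160200272, and ITGA2, at 52989352. Both LAMA3 sites fall on bases that another LAMA3 transcript holds as exon. They are printed with 10 bases on each side and the motif in capitals.
LAMA3, chr18:23872885-23872911, plus strand: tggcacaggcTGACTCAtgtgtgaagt
LAMA3, chr18:23872941-23872967, plus strand: cttcctcaccTGAGTCAggcaggcccg

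The motif TGATGNAA, the core of the element that ATF4 and C/EBP proteins bind together, was in none (0) of the 7 windows and in 3.2% of all promoters. A match here is a string of letters, not a measured site, and a missing match says only that the letters are not in these windows.

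Between the lines, without drug, all 9 genes were higher in NeuT than in Empty. ITGA5, the α subunit of the fibronectin receptor, differed most, at 3.83-fold, and the laminin chain LAMA3 and the α subunit ITGA2 differed about as much as each other, by 0.99 and 1.14 on the log2 scale. The β subunits ITGB1, ITGB4 and ITGB6 had the smallest differences, 0.40 to 0.48. All 9 passed the test in this direction (edgeR's quasi-likelihood test over all 17693 genes, adjusted p under 0.05), where 21.2% of all tested genes did. In either direction 42.0% of all tested genes were called, and 20.8% were called lower in NeuT. The median log2 difference of the 9 was 0.63, against -0.0156 over all tested genes. For every one of the 9 genes both untreated NeuT libraries lay above both untreated Empty libraries, as in 36.1% of all tested genes, and the same held under JG-98, as in 34.0%. The 9 genes were chosen with earlier results of these data known. The values over all genes are thus given for scale and do not test the set. In bulk RNA, a change in the share of cells that express a gene and a change in the RNA per cell cannot be told apart.

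**Figure D1:**
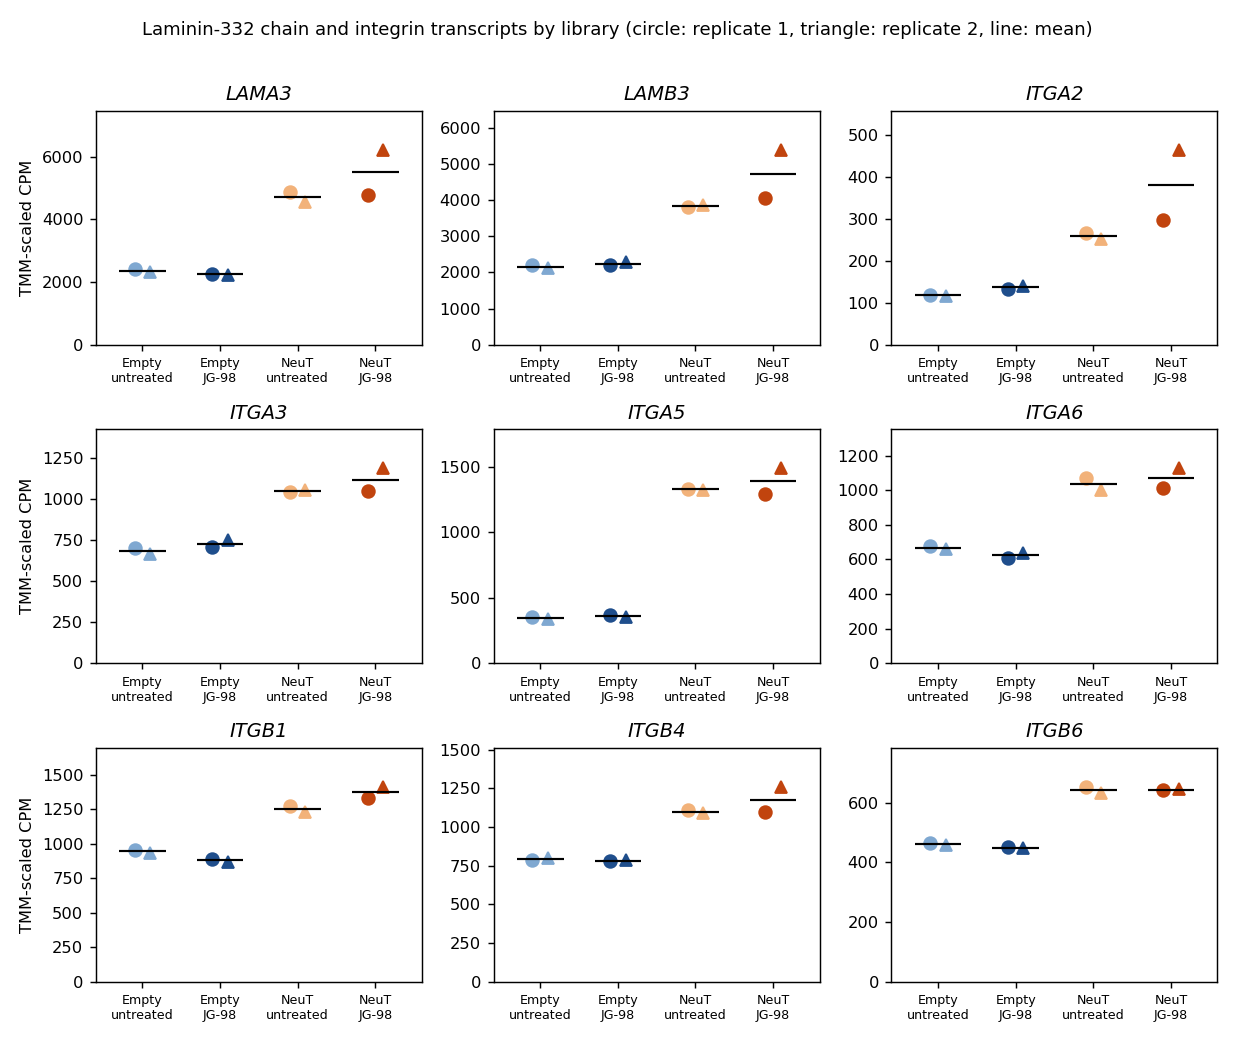
Level of each of the 9 genes in each library, in TMM-scaled CPM (linear axes from 0), with circles for replicate 1, triangles for replicate 2 and a line at the mean of the group. All NeuT libraries sit above all Empty libraries in each panel, ITGA5 by the largest fold, and NeuT JG-98 replicate 2 is the highest library in 8 of the 9 panels.

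LAMA3, the α3 chain that carries the part of laminin-332 which integrins bind, was at 2419 and 2314 CPM (a library's counts divided by its TMM-scaled size) in untreated Empty. It was at 4864 and 4539 CPM in untreated NeuT. The NeuT libraries were about 2 times as high and did not overlap the Empty ones (log2 difference 0.99, SE 0.101, adjusted p = 2.80e-05, edgeR).

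LAMB3, the β3 chain, was at 2198 and 2112 CPM in untreated Empty and at 3810 and 3850 CPM in untreated NeuT. The groups were again apart, with a log2 difference of 0.83 (SE 0.111, adjusted p = 0.000327, edgeR). Together LAMA3 and LAMB3 took 0.455% to 0.470% of all counts in the Empty libraries and 0.821% to 1.12% in the NeuT libraries.

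ITGA2 encodes the α subunit that pairs with ITGB1 as a receptor for collagens and laminins. It was at 119.9 and 116.3 CPM in untreated Empty and at 265.9 and 253.5 CPM in untreated NeuT, groups that do not overlap. The log2 difference was 1.14, with the widest error of the 9 (SE 0.219, adjusted p = 0.0133, edgeR). This call was lost in 3 of the fits that left out a library: the adjusted p was 0.0683 and 0.0734 without Empty untreated replicate 1 or 2, and 0.0528 without NeuT untreated replicate 1.

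ITGA3, the α subunit of the laminin receptor α3β1, was at 700.6 and 666.7 CPM in untreated Empty and at 1044 and 1056 CPM in untreated NeuT. The difference was 0.62 on the log2 scale (SE 0.0604, adjusted p = 2.96e-07, edgeR). ITGA6, which pairs with ITGB4 in hemidesmosomes, was at 675.5 and 658.6 CPM and at 1069 and 999.2 CPM. Its difference of 0.63 (SE 0.0590, adjusted p = 1.75e-07, edgeR) was close to that of ITGA3, and in neither gene did the lines overlap.

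ITGA5 was at 353.8 and 341.3 CPM in untreated Empty and at 1333 and 1326 CPM in untreated NeuT. The replicates lay far closer to each other than the lines did, and the log2 difference was 1.94 (SE 0.0626, adjusted p = 4.99e-13, edgeR). Of all tested genes, 3.82% had a larger difference in size between the untreated lines. Its best known ligand, fibronectin (FN1), was higher in NeuT as well, by 2.31 on the log2 scale (SE 0.0983, adjusted p = 9.14e-09, edgeR).

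ITGB1, the β subunit shared by ITGA2, ITGA3, ITGA5 and others, was at 958.9 and 937 CPM in untreated Empty and at 1272 and 1234 CPM in untreated NeuT. It had the smallest difference of the 9 (log2 0.40, SE 0.0514, adjusted p = 6.85e-06, edgeR). ITGB4, whose long cytoplasmic tail binds plectin in hemidesmosomes, was at 789.4 and 799.3 CPM and at 1109 and 1089 CPM (log2 0.47, SE 0.0600, adjusted p = 7.08e-06, edgeR). ITGB6 was at 466.1 and 460.2 CPM and at 653.6 and 633.9 CPM (log2 0.48, SE 0.0492, adjusted p = 6.22e-07, edgeR). Small as these differences were beside that of ITGA5, the libraries of the lines did not overlap in any of the β genes.

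Across the 9 genes the count called higher was 9 without drug under each alternative that kept all 8 libraries, and 8 or 9 when a library was left out, with ITGA2 the one lost. The values of the mesenchymal and leukocyte marker sums given above moved with the line too, and so did the sum of the 4 general epithelial markers, at 6139 to 6301 TPM in Empty and 4705 to 5029 TPM in NeuT. Among these, EPCAM was lower in untreated NeuT by 1.07 and KRT7 by 0.30 on the log2 scale, CDH1 was higher by 0.22, and KRT19 (0.16, adjusted p = 0.450, edgeR) did not pass. The basal sum (17960 to 18460 TPM in Empty, 16700 to 17530 TPM in NeuT, although TP63, KRT5, EGFR and CDH3 were called higher in untreated NeuT), the luminal sum (1989 to 2052 and 2154 to 2377 TPM) and the endothelial sum did not overlap between the lines either. Genes within the basal and luminal lists did not all move in the direction of their sums. The part of these markers in the differences of the 9 genes was not tested. The markers named above as under 1 TPM were so in both lines. Scaling by total counts alone lowered all line differences alike and left the 9 calls in place (LAMA3 0.92, ITGA5 1.87, ITGB1 0.33 on the log2 scale). With that scaling 40.7% of all calls between the untreated lines were higher in NeuT, against 50.5% with TMM. Untreated libraries without overlap and lower in NeuT, which none (0) of the 9 showed, occurred in 37.1% of all tested genes.

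The same comparison in the presence of JG-98 also gave 9 of 9 genes higher in NeuT (edgeR, adjusted p under 0.05), where 21.7% of all tested genes were called higher and 41.7% in either direction. The treated libraries are different samples from the untreated ones but come from the same lines. The median log2 difference of the 9 was 0.78. ITGA5 again differed most, by 1.95, followed by ITGA2 at 1.47, LAMA3 at 1.29 and LAMB3 at 1.08. ITGA6 (0.78), ITGB1 (0.64), ITGA3 (0.62), ITGB4 (0.59) and ITGB6 (0.52) came after. The adjusted p ranged from 4.50e-13 for ITGA5 to 0.00543 for ITGA2 (edgeR). Under JG-98, total count scaling changed the share of all calls that were higher in NeuT from 52.0% to 41.0%, and the 9 calls stood.

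**Figure D2:**
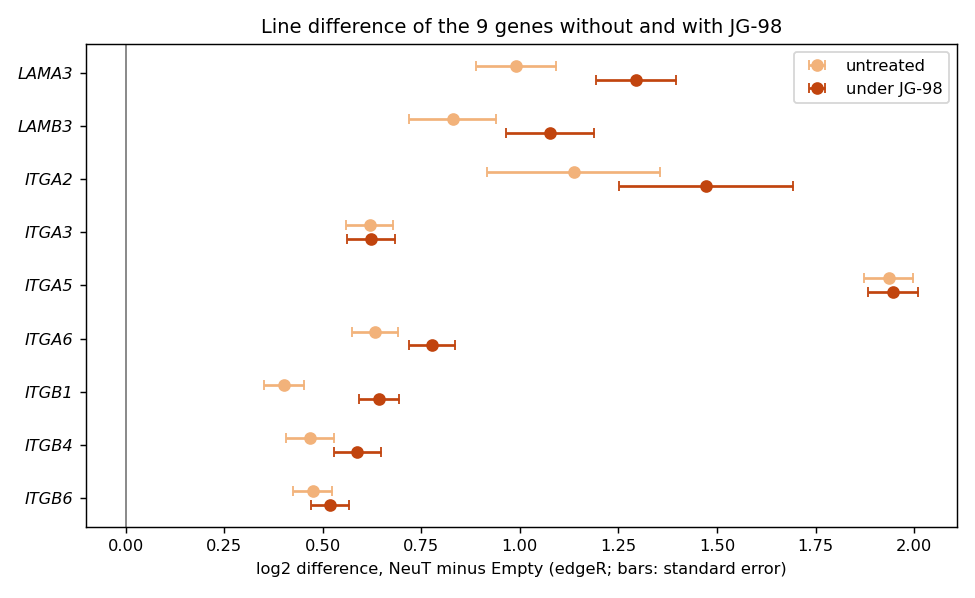
Log2 difference of NeuT minus Empty for the 9 genes, without drug (light) and under JG-98 (dark), with the standard error of the edgeR fit as bars. All 18 points lie to the right of 0, and ITGA5 stands near 1.94 in both conditions while the β subunits lie between 0.40 and 0.64.

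The difference between these pairs of values is the interaction of line and drug, and 0 of the 9 genes passed its test. Over all genes 0.00565%, a single gene, did so in edgeR, although 1378 had an unadjusted p under 0.05, and DESeq2 called 19. ITGB1 came closest among the 9, with an interaction of 0.24 (SE 0.0726, unadjusted p = 0.00429, adjusted p = 0.490, edgeR). The values of LAMA3 (0.30), LAMB3 (0.25) and ITGA2 (0.33) were larger but had wider errors, with adjusted p of 0.656, 0.738 and 0.828 (edgeR). Without NeuT JG-98 replicate 1, 5 of the 9 passed (LAMA3, LAMB3, ITGA2, ITGB1 and ITGB4), as did 777 of all 18667 genes tested then. Without NeuT JG-98 replicate 2, 0 of the 9 passed and the interactions were -0.04 for ITGA2, 0.09 for LAMA3 and 0.01 for LAMB3, against 0.61, 0.47 and 0.43 without replicate 1. Without the filter on low counts LAMA3 did (adjusted p = 0.0220, edgeR).

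In Empty cells, JG-98 had no effect on the 9 genes that passed the test (0 of 9, edgeR), where 0.339% of all tested genes did, 60 in number (0.260% higher and 0.0791% lower). At an unadjusted p under 0.05 edgeR had 1739 genes, none (0) of them among the 9, and DESeq2 called 0 of the 9. The log2 differences were small: -0.08 for LAMA3, 0.05 for LAMB3, 0.22 for ITGA2, 0.09 for ITGA3, 0.06 for ITGA5, -0.10 for ITGA6, -0.11 for ITGB1, -0.02 for ITGB4 and -0.04 for ITGB6. Even so, the treated and untreated libraries did not overlap in any of the 9. LAMB3, ITGA2, ITGA3 and ITGA5 lay above the untreated libraries, as did 20.9% of all genes, and the other 5 lay below, as did 22.2%.

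ITGA2 showed the largest of these differences in Empty. Its treated libraries were at 134.1 and 141.1 CPM, above the untreated 119.9 and 116.3 CPM, and the adjusted p was 0.826 (edgeR). The same difference passed when only the 4 Empty libraries were fitted (adjusted p = 0.0371) and when NeuT JG-98 replicate 1 or 2 was left out (adjusted p = 0.00538 and 0.00596, edgeR). ITGB1 was at 889.7 and 870.3 CPM, below the untreated 958.9 and 937 CPM (unadjusted p = 0.0525, adjusted p = 0.513, edgeR). LAMA3 at 2256 and 2225 CPM was likewise just below its untreated range.

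In NeuT cells, JG-98 again gave 0 calls among the 9 (edgeR), where 3.01% of all tested genes were called, 2.01% higher and 1.01% lower. At an unadjusted p under 0.05 there were 2 of the 9, LAMB3 and ITGB1, and 2829 of all 17693 genes, and DESeq2 called 0 of the 9. All 9 log2 differences were at or above 0, from 0.00 for ITGB6 to 0.56 for ITGA2. The sign of several of them rested on replicate 2 of the treated cells, as the plot of treated libraries against their untreated means shows. That library lay above the untreated NeuT mean in 9 of 9 genes, while replicate 1 lay above it in 5. Over all tested genes, 48.8% were above the mean in replicate 2.

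**Figure D3:**
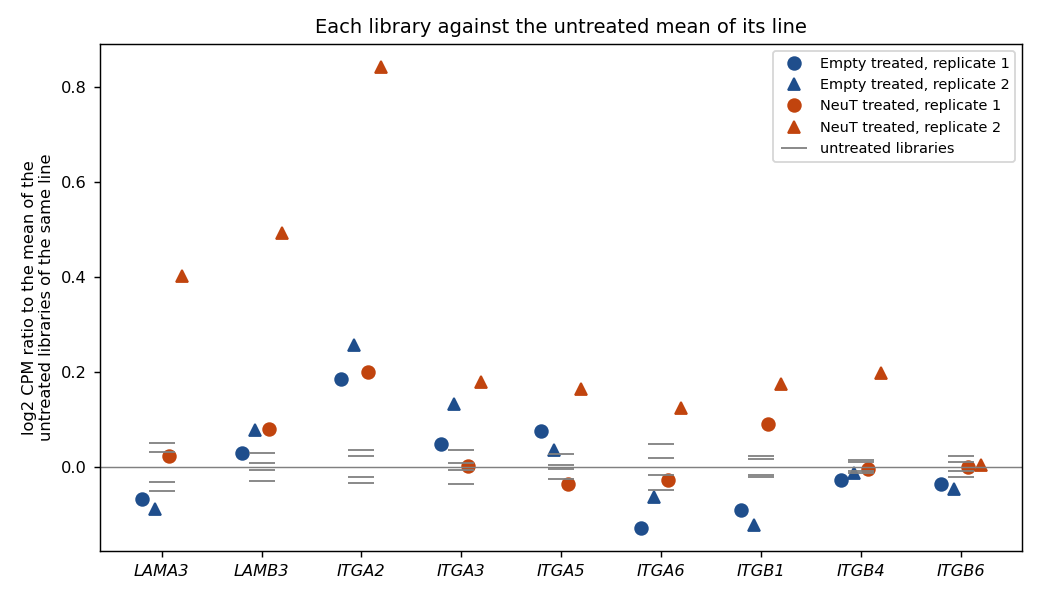
Log2 ratio of each library to the mean of the untreated libraries of its own line, for the 9 genes, with treated Empty in blue, treated NeuT in red and untreated libraries as grey dashes. NeuT JG-98 replicate 2 reaches 0.84 in ITGA2 and 0.49 in LAMB3, while replicate 1 of the same group is at 0.20 and 0.08.

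As a ratio, ITGA2 had the widest gap of the 9 between the treated NeuT libraries, 298 CPM in replicate 1 and 465.5 CPM in replicate 2. Both lay above the untreated 265.9 and 253.5 CPM, and the difference was 0.56 on the log2 scale (SE 0.215, adjusted p = 0.321, edgeR). In the authors' deposited table the log2 fold change of ITGA2 in NeuT was 0.52 with an adjusted p of 0.05003, the lowest there among the 9.

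LAMB3 was at 4047 and 5385 CPM in treated NeuT, both above the untreated 3810 and 3850 CPM (log2 0.30, adjusted p = 0.230, edgeR). LAMA3 was at 4778 and 6212 CPM, and its replicate 1 fell inside the untreated range of 4539 to 4864 CPM (log2 0.22, adjusted p = 0.315, edgeR). The laminin chains thus shared the pattern of ITGA2, with one treated library near the untreated ones and the other well above.

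ITGB1 was at 1333 and 1414 CPM in treated NeuT, above the untreated 1272 and 1234 CPM in both libraries (log2 0.13, adjusted p = 0.203, edgeR). Its treated libraries thus lay below the untreated ones in Empty and above them in NeuT. ITGB1, LAMB3 and ITGA2 were the 3 genes whose treated NeuT libraries both lay higher, which 21.9% of all genes did (22.9% lay lower), and the other 6 overlapped.

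The remaining integrins were close to their untreated levels in replicate 1. ITGA3 was at 1051 and 1188 CPM, ITGA5 at 1296 and 1488 CPM, and ITGA6 at 1014 and 1126 CPM in treated NeuT. ITGB4 was at 1095 and 1260 CPM. In each of these 4 genes replicate 2 was the higher library and replicate 1 lay inside or just below the untreated values. ITGB6 was the exception, at 643.4 and 645.6 CPM, between its untreated values of 653.6 and 633.9 CPM.

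The calls in NeuT changed with the treated library kept and with the settings of the fit. With all 8 libraries, LAMB3 and LAMA3 passed without the filter on low counts (adjusted p = 0.000224 and 0.00298, edgeR), and ITGA2 without robust estimation (adjusted p = 0.0402, edgeR). Without replicate 1, 7 of the 9 passed (edgeR), with log2 differences of 0.84 for ITGA2, 0.49 for LAMB3, 0.40 for LAMA3, 0.20 for ITGB4, 0.18 for ITGA3, 0.17 for ITGB1 and 0.16 for ITGA5. Without replicate 2, 0 of the 9 passed, and the differences were 0.19 for ITGA2, 0.07 for LAMB3, 0.01 for LAMA3 and 0.08 for ITGB1. In either fit a single treated NeuT library was assumed to vary like the other groups. Over all genes the number called was 2133 without replicate 1 and 367 without replicate 2, against 533 with both.

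Levels of different genes can be compared only per length, so TPM was used for the order. Averaged over the 8 libraries, LAMB3 was the highest of the 9 at 2586 TPM, rank 32 among all genes. LAMA3 came next at 935 TPM (rank 133), then ITGB1 at 690, ITGB4 at 531, ITGA6 at 471, ITGA5 at 428, ITGB6 at 354 and ITGA3 at 340 TPM. ITGA2 was the lowest at 105 TPM (rank 1733), and all 9 were above 50 TPM in every library. LAMB3, LAMA3 and ITGB1 held the first 3 places in each group, and ITGA2 the last. ITGA5 was in place 8 of 9 in both Empty groups and in place 4 in both NeuT groups.

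Most neighbours in the order did not overlap between libraries of a group. The exceptions were ITGB6 and ITGA3 in Empty JG-98 and in NeuT JG-98, and ITGA5 with ITGB4 and ITGB4 with ITGA6 in NeuT JG-98. The order leans on gene length: with the longest transcript of GENCODE 29 as the length, an alternative chosen after seeing the data, 31 of the 36 pairs kept their order.

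Among 18 α subunit genes, the 4 members ITGA2, ITGA3, ITGA5 and ITGA6 held 89.8% to 93.4% of the summed TPM in every library. ITGA6 was the most abundant α transcript in untreated Empty, at 38.5% and 38.8% of the sum, and ITGA5 held 18.3% in both libraries. In untreated NeuT, ITGA5 was the most abundant at 35.1% and 35.7%, ahead of ITGA6 at 30.9% and 29.6%. ITGA3 went from 27.3% and 26.9% to 20.7% and 21.4%. The shares of ITGA5 did not overlap between the lines, and under JG-98 they stayed at 18.3% to 19.6% in Empty and 34.3% to 34.7% in NeuT. ITGA2 reached 10.0% in NeuT JG-98 replicate 2 and was 5.80% to 7.46% elsewhere. The first place of ITGA6 in Empty depends on the length used: with the longest transcript, ITGA3 lay above ITGA6 in untreated Empty without overlap of the libraries, and on average in the other groups too, while ITGA5 remained the highest α subunit in NeuT. A share of a sum falls when another member rises, so the lower shares of ITGA6 and ITGA3 in NeuT stand beside higher levels of both.

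**Figure D4:**
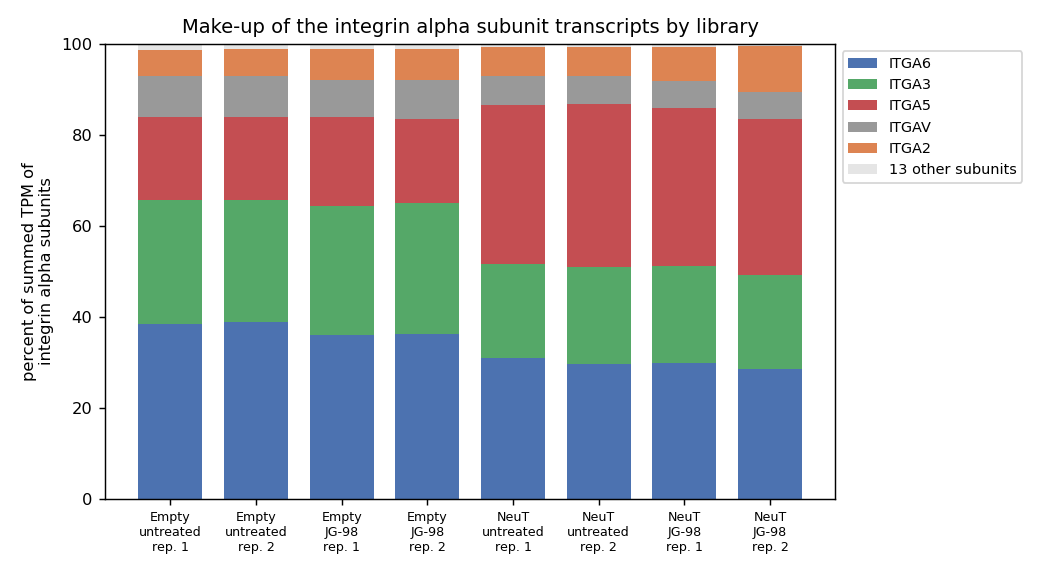
Share of each integrin α subunit in the summed TPM of 18 α subunit genes, one bar per library (percent, from 0 to 100). The band of ITGA5 is about 18% to 20% in the 4 Empty libraries and 34% to 36% in the 4 NeuT libraries.

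The β subunits ITGB1, ITGB4 and ITGB6 kept their proportions more closely. Of the summed TPM of 8 β subunit genes, ITGB1 held 39.1% on average in untreated Empty and 39.2% in untreated NeuT. ITGB4 held 29.2% and 30.5%, and ITGB6 19.9% and 20.9%. The ratio of ITGA5 to ITGB1 transcripts, both parts of the fibronectin receptor, went from 0.301 and 0.297 in untreated Empty to 0.854 and 0.875 in untreated NeuT. The ratio of the hemidesmosome pair ITGA6 to ITGB4 went from 0.862 and 0.830 to 0.971 and 0.925, and that of LAMA3 to LAMB3 from 0.348 and 0.347 to 0.404 and 0.373. So the ratio within the fibronectin receptor differed between the lines by more than those within the hemidesmosome pair and the laminin chains, which is a description without a test.

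The other genes of these structures were read from 6 lists with 93 genes in all, chosen with earlier results known and given without a test of the list. Between the untreated lines, 42.0% of all tested genes were called, 21.2% higher and 20.8% lower in NeuT. Of 10 other laminin chains, 8 were tested and 4 were called higher in untreated NeuT, 0 lower (edgeR). LAMA4, the α chain of laminins in vessel and muscle basement membranes, was higher by 1.17 and LAMB1 by 0.37 on the log2 scale. The median of the tested chains was 0.31. Of 19 other integrin subunits, 11 were tested, 5 were called higher and 1 lower, with a median of -0.01. ITGB7 was higher by 1.35, ITGA1 by 0.54 and ITGB2 by 0.53, the last a β subunit of leukocyte integrins. Exons of other genes cover 42.3% of the exonic bases of ITGB7 and 13.2% of those of ITGA1. Their counts may therefore hold reads of those genes or miss reads shared with them. The call of ITGA1 was lost without Empty untreated replicate 2 (adjusted p = 0.0844, edgeR).

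Among 9 hemidesmosome partners, 8 were tested, and 3 were called higher in untreated NeuT and 0 lower, with a median of 0.22. That count depends on the processing: 3 were called higher and 3 lower with total counts, 4 and 1 in limma-voom, without robust estimation and with a replicate block, and 5 and 2 with only the 4 untreated libraries or without NeuT JG-98 replicate 1 or 2. COL17A1, the collagen that spans the membrane beside α6β4, was at 263.5 and 256.6 CPM in untreated Empty and at 791.9 and 787.2 CPM in untreated NeuT. The libraries of the lines were far apart, and the difference was 3.04-fold (SE 0.0651 on the log2 scale, adjusted p = 6.80e-12, edgeR). FRAS1, an extracellular matrix protein of epithelial basement membranes, was higher by 0.96, and the basal keratin KRT5 by 0.54. PLEC, the plectin that ties ITGB4 to keratin, did not pass (log2 0.36, adjusted p = 0.0691, edgeR). Under JG-98, 5 partners were called higher and 1 lower, with PLEC higher by 0.58 and KRT14 lower by 0.19. KRT14 lost its call when only the 4 treated libraries were fitted (adjusted p = 0.0601, edgeR), and PLEC without Empty JG-98 replicate 1 (adjusted p = 0.0774, edgeR). The difference of PLEC was 0.79 without NeuT JG-98 replicate 1 and 0.34 without replicate 2.

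All 28 genes of the list of integrin adhesion adaptors, which also holds kinases such as SRC, were tested. Of these, 16 were called higher and 3 lower, with a median of 0.21. Without Empty untreated replicate 2 these counts were 10 and 2. FERMT1, the kindlin of epithelial cells that activates β1 integrins, was higher by 1.63, TLN2, a talin, by 1.39 and TNS2, a tensin, by 1.04. FERMT2, another kindlin, was lower by 0.33. TNS1 was lower by 0.51 with an adjusted p of 0.0455, which became 0.109 in DESeq2, 0.106 without a filter on low counts and 0.0540 with a replicate block, and leaving out any 1 library also ended its call (adjusted p up to 0.178, edgeR). The kindlins FERMT1 and FERMT2 thus lay in opposite directions.

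Of 17 other integrin ligands and basement membrane genes, 15 were tested, with 5 called higher and 4 lower and a median of 0.06. Besides FN1, the matrix protein tenascin-C (TNC) was higher by 1.72 and the nidogen NID2 by 1.17. TGFB2 was lower by 1.45, thrombospondin-1 (THBS1) by 0.56 and the collagen IV chain COL4A2 by 0.45. Of 10 genes for non-integrin laminin receptors and laminin processing, all 10 were tested, 5 were called higher and 4 lower. The plasminogen activators PLAT and PLAU were higher by 2.71 and 1.56, and the syndecan SDC4 by 1.09. The protease TLL1 was lower by 1.04, and the laminin receptors BCAM and DAG1 by 0.38 and 0.29. These 3 calls each rested on single libraries: the adjusted p was 0.0519 for TLL1 without Empty untreated replicate 2, 0.0714 and 0.116 for BCAM without Empty untreated replicate 1 or NeuT untreated replicate 1, and 0.0739 for DAG1 without NeuT untreated replicate 2 (edgeR). Exons of other genes cover 31.1% of those of PLAU, 30.0% of NID2 and 24.8% of TGFB2.

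**Figure D5:**
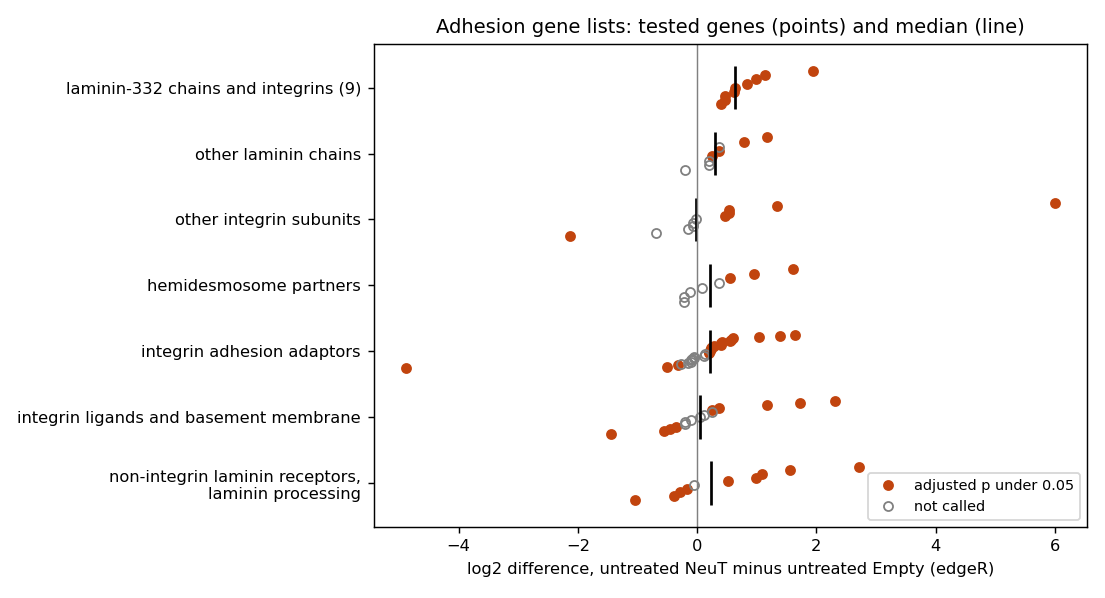
Log2 difference of untreated NeuT minus untreated Empty for the tested genes of each list, filled where edgeR's adjusted p was under 0.05, with a bar at the median. The 9 laminin-332 and integrin genes are all filled and right of 0, and the outermost points, ITGAX (0 counts in both untreated Empty libraries, 6 and 10 in NeuT) and LIMS2 (63 and 68 counts in Empty, 4 and 0 in NeuT), have fitted values that depend on the prior count.

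Between the lines under JG-98, 21.7% of all tested genes were called higher and 20.0% lower in NeuT. Of the lists other than the hemidesmosome partners, called higher and lower were 5 and 0 of 8 tested laminin chains, 5 and 1 of 11 integrins, 18 and 3 of 28 adaptors, 5 and 4 of 15 ligands and 5 and 4 of 10 other receptors and processing genes (edgeR). The last of these became 5 and 0 without Empty JG-98 replicate 2. PLAT was higher by 3.08, PLAU by 1.80, LAMA4 by 1.55, LAMB1 by 0.71 and ITGAV, the partner of ITGB6, by 0.62. The integrin β1 binding protein ITGB1BP1, which shares 33.1% of its exonic bases with another gene, was lower by 0.25, FERMT2 by 0.19 and the laminin receptor RPSA by 0.18. These 3 lower calls depended on the libraries used. ITGB1BP1 had an adjusted p of 0.0699 without Empty JG-98 replicate 1, while FERMT2 and RPSA had 0.0695 and 0.112 when only the 4 treated libraries were fitted (edgeR). Without NeuT JG-98 replicate 2 the difference of RPSA was -0.07 (adjusted p = 0.356, edgeR).

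JG-98 gave 1 call in each line among the tested genes of these lists in edgeR with its filter and TMM scaling, where 0.339% of all tested genes were called in Empty and 3.01% in NeuT. Other fits of all 8 libraries added a few. In Empty, 2 adaptors were lower in DESeq2 and without the filter, 1 with a replicate block, and 1 hemidesmosome partner was lower without the filter. In NeuT, 1 adaptor was higher in DESeq2, with total counts and without the filter, and 1 hemidesmosome partner without the filter. In Empty cells the call made with the filter and TMM scaling was TGFBI, a matrix protein that binds integrins, lower by 0.26 (SE 0.0497, adjusted p = 0.0295, edgeR), with 1333 and 1290 CPM against 1581 and 1556 CPM untreated. In NeuT cells it was NTN4, a netrin that binds laminin, higher by 0.30 (SE 0.0525, adjusted p = 0.00366, edgeR), with 191.7 and 198 CPM against 157.9 and 158.6 CPM. The treated and untreated libraries did not overlap in either gene. The call of TGFBI was lost without any 1 of the Empty libraries or the untreated NeuT libraries (adjusted p 0.121 to 0.353), and that of NTN4 without NeuT untreated replicate 1 or 2 (adjusted p = 0.0994 and 0.106, edgeR). The number of calls in Empty rose when NeuT JG-98 replicate 1 or 2 was left out. This held for the hemidesmosome partners, the adaptors, the ligands, and the other receptors and processing genes. As with the 9 genes, the count in NeuT turned on the treated NeuT libraries. Without NeuT JG-98 replicate 1, calls numbered 3 among the other laminin chains, 4 among the hemidesmosome partners, 6 among the adaptors, 4 among the ligands and 4 among the other receptors and processing genes, with 2133 calls among all 18667 genes tested then. Without NeuT JG-98 replicate 2 there were 3 among the adaptors, all lower, and 2 among the ligands.

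For each of the 9 genes, the profiles most like its own were sought among 13116 genes, by the root mean square difference of mean-centred log2 CPM over the 8 libraries. This likeness is a description, and the 8 libraries are shared by all the profiles. ITGB1 was closest to the laminin chain LAMB1 (0.0351). LAMA3 was closest to HIVEP2 (0.0567), LAMB3 to ITPKC (0.0459) and ITGA2 to SPRY4 (0.0821), a feedback inhibitor of receptor tyrosine kinase signalling. ITGA5 was closest to the long non-coding RNA MYOSLID (0.0707), ITGA3 to SREK1IP1 (0.0280) and ITGA6 to OGA (0.0398). ITGB4 was closest to RSPH3 (0.0249) and ITGB6 to KCTD10 (0.0219). None (0) of the closest genes was itself one of the 9. All 18 nearest pairs, 2 per gene, were the same with median-of-ratios scaling and without scaling.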

How the data were processed

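The authors deposited 1 table with the raw counts of the 8 libraries, gene by gene, and 1 table per line with their own treated against untreated comparison. Per the submitters' processing notes, Trim Galore 0.5.0, FastQC 0.11.7, HISAT2 2.1.0, SAMtools 1.9, featureCounts 1.6.3, limma and the builds hg38 and GRCh38 were used. The annotation release and strand setting are not given in the sources used here. Per the file headers, the count table also gives exonic length, and the authors' tables give log2 fold changes, p-values and test scores.

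The counts were fitted as deposited with edgeR 4.0.16 (R 4.3.3): filterByExpr (minimum count 10, total 15), TMM scaling, and a robust quasi-likelihood model with 1 coefficient per group over all 8 libraries. Benjamini-Hochberg adjustment ran over the 17693 genes tested, and a gene was called at an adjusted p under 0.05. An exact permutation test of 2 against 2 libraries cannot reach 0.05. Symbols matched 60261 of 60617 identifiers, and of 58542 identifiers also in GENCODE 29, 82.3% had an identical span. The chi-square between replicates was 4.37 to 20.7 per gene, so each library counted as its own replicate. The scripts were tested on simulated data. Alternatives included DESeq2 1.42.0 and limma-voom (limma 3.58.1).

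The 9 genes and the 6 lists were chosen with earlier results of these data known. Beyond the 9, genes were named by a rule: per list and contrast, up to 3 called genes with the largest rise and 3 with the largest fall, with a mean of at least 50 counts. PLEC, ITGAX, LIMS2 and the marker genes given with values were named after their values were seen. A few items that this rule or the marker lists would name are not reported here.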

Additional observations from a re-analysis of the deposited data

How the results depend on the processing

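With 2 libraries per group, each value rests on few samples, and intervals of counting error do not cover the spread between cultures. The count of the 9 genes called higher in NeuT was 9 in both conditions with other scalings, other filters, DESeq2, limma-voom, no robust estimation, a replicate block and only the 4 libraries compared, and 8 to 9 without drug and 9 under JG-98 when a library was left out. The cause of the changes below was not tested.

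For JG-98 in Empty, the number of the 9 called was 1 with only the 4 libraries and 0 to 1 with a library left out. Over all genes it was 282 without a filter, 146 in DESeq2, 205 with only the 4 libraries and 9 to 417 with a library left out, against 60. For JG-98 in NeuT, 2 of the 9 were called without a filter, 1 without robust estimation and 0 to 7 with a library left out. Over all genes the number was 1000 without a filter, 185 with only the 4 libraries and 132 to 2133 with a library left out, against 533. For the interaction, 1 of the 9 was called without a filter and 0 to 5 with a library left out. Over all genes the number was 2 with total counts, 138 without a filter, 19 in DESeq2, 3 without robust estimation and 1 to 777 with a library left out, against 1.

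Some values changed sign, most of them near 0. For JG-98 in NeuT, ITGB6 was -0.0042 with median-of-ratios scaling and in DESeq2, -0.0011 with total counts and -0.0006 with at least 10 counts everywhere. Leaving out a library gave -0.028 to 0.0211 for ITGB6, -0.0063 to 0.176 for ITGA3, -0.045 to 0.161 for ITGA5, -0.0366 to 0.121 for ITGA6 and -0.0137 to 0.195 for ITGB4. The interaction of ITGA3 was -0.0035 with median-of-ratios scaling and in DESeq2, -0.0039 with total counts, -0.0021 with at least 10 counts everywhere and -0.0009 in limma-voom. Leaving out a library gave interactions of -0.101 to 0.0812 for ITGA3, -0.105 to 0.101 for ITGA5 and, from 0.33 with all libraries, -0.0367 to 0.613 for ITGA2.

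Deviations of same-numbered replicates correlated between groups with r from -0.101 to 0.244 over 9551 genes, so the numbers were not taken as pairs. The value of 0.244 was that between the treated groups, Empty JG-98 and NeuT JG-98, and the next highest was 0.0640. A replicate block called 9 and 9 of the genes between the lines, and 0 for JG-98 in either line and for the interaction.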
